A study of Mus musculus with 2 samples.

Results

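The chromatin of 10 genes of the Notch pathway was described in single nuclei of mouse mammary organoids: the receptor genes Notch1, Notch2, Notch3 and Notch4, the ligand genes Jag1, Jag2 and Dll1, and the target genes Hes1, Hey1 and Hey2. A region was taken as a member when it overlapped the body of one of these genes or lay within 20 kb of one of its transcription start sites (TSS) in GENCODE M21 (build mm10, which is GRCm38). After the peaks of both libraries were merged, 177 of 275294 regions met this rule. A peak of both libraries was present in 125 of them, out of 174940 such shared regions in all, and no region belonged to 2 of the genes. A peak of DOX only was found in 25 member regions (14.1%) against 17% of all merged regions, and a peak of EtOH only in 27 (15.3%) against 19.4%. Of the shared member regions, 32 belonged to Notch2, 27 to Notch1, 14 to Notch4, 11 to Hes1, 10 to Notch3, 9 to Jag2, 7 to Jag1, 7 to Dll1, 4 to Hey1 and 4 to Hey2. Of these, 10 sat at the promoter of a neighbouring gene, and 19 had a TSS of another protein-coding gene nearer than that of the member.

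Notch receptors are single-pass membrane proteins that are cleaved when a Jagged or Delta ligand of a neighbouring cell binds them. The released intracellular domain enters the nucleus, joins the DNA-binding protein RBPJ and its coactivators, and switches on repressor genes of the Hes and Hey families. In the mammary epithelium the pathway is known for its part in luminal commitment, with Notch3 marking luminal cells and with ligands presented by basal cells, and Dll1 on basal cells is known to act on Notch receptors of macrophages.

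Nuclei were profiled by single-cell ATAC-seq, in which a transposase cuts open chromatin and the cuts in each peak are counted. Both libraries came from primary C57BL/6J mammary organoids of the genotype shTRPS1.34 ki/+; CAG-rtTA3 tg/+, an inducible shRNA against the GATA-type repressor gene Trps1 with its reverse tetracycline transactivator. One library was made after 7 days in doxycycline at 0.1 µg/ml (DOX), which induces the shRNA, and one after the same time in its solvent, ethanol (EtOH). The control library therefore carried both transgenes too. The transactivator is driven by the ubiquitous CAG promoter, and per the study it did not induce the shRNA in every mammary cell of doxycycline-treated mice. Induction per cell in these organoids was not measured here. Doxycycline and the shRNA cannot be told apart, because no library received doxycycline without the shRNA. Cells of several mice were mixed, and each group had 1 library. No difference between the libraries could therefore be tested, and every interval given here covers counting error only.

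DOX held 3071 nuclei and EtOH 3104, with medians of 75195 and 66701 counts per nucleus, and 23 barcodes occurred in both libraries. Levels are given as counts scaled to a total of 1000000 in shared regions (CPM) with exact Poisson intervals, and differences as log2 of DOX over EtOH with exact conditional binomial intervals, all at 95%. Nuclei were clustered without the member regions. Clusters were named only from lists of cell type markers. The share of immune-like nuclei was 41.6% in DOX and 8.99% in EtOH. Luminal progenitor-like nuclei made up 1.79% of DOX and 53.7% of EtOH, and hormone-sensing luminal-like nuclei 3.26% and 32.0%. A cluster led by Psg28, which no marker list named, held 49.9% of DOX and 0.677% of EtOH, and an unnamed cluster led by Cpxm2, with the highest opening of the basal list (734 CPM in DOX, 731 in EtOH) and of the fibroblast list, held 1.92% and 3.87%. No cluster was named basal, fibroblast, endothelial or pericyte. A ratio over all nuclei therefore holds both the makeup of a library and the opening within its nuclei. Ratios are also given outside the immune-like clusters and, for some regions, within clusters. Outside the immune-like clusters the makeup still differed. Psg28-led nuclei numbered 1531 in DOX and 21 in EtOH, luminal progenitor-like nuclei 55 and 1668, and hormone-sensing luminal-like nuclei 100 and 994. The ratios outside thus set mainly Psg28-led nuclei of DOX against mainly luminal-like nuclei of EtOH. No ratio within Psg28-led nuclei is given, because EtOH held under 50 of them. The immune list (all 6 of its genes measured) took 244 CPM in DOX and 108 CPM in EtOH over all nuclei, and 82.2 and 79.2 CPM outside the immune-like clusters. How far this list moves the ratios over all nuclei was not tested other than by leaving those nuclei out.

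Sequences of the Hey2 promoter and of single regions with large differences are shown first, read from the GRCm38.p6 genome or from RefSeq promoters of that build. Each has 300 bases. The first is the Hey2 promoter (chr10:30842734-30843033, minus strand), shown for its 2 matches to the RBPJ core GTGGGAA in capitals (either strand). The others are on the plus strand and are the centres of single peaks. The Jag1 intron region (chr2:137098361-137098660), low in DOX and highest in hormone-sensing luminal-like nuclei, and the Notch1 intron region (chr2:26483388-26483687), open in immune-like nuclei, each hold 1 RBPJ core in capitals. The region downstream of Jag2 (chr12:112894917-112895216), also open in immune-like nuclei, has 1 match to the PU.1 string GAGGAAGT in capitals. The Notch4 intron region (chr17:34580044-34580343), high in DOX, and the region downstream of Hey2 (chr10:30828519-30828818), open in luminal progenitor-like nuclei of EtOH, hold 2 and 1 GATA strings in capitals. The region upstream of Hes1 (chr16:30059217-30059516), the highest in DOX outside the immune-like clusters, has no GATA string and is shown in lower case.
Hey2 promoter: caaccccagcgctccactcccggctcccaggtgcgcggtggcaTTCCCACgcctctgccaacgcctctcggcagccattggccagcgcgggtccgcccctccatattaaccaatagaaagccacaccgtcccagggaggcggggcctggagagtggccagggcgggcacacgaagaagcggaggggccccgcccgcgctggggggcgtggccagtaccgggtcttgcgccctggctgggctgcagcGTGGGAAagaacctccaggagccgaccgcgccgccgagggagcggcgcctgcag
Jag1 intron: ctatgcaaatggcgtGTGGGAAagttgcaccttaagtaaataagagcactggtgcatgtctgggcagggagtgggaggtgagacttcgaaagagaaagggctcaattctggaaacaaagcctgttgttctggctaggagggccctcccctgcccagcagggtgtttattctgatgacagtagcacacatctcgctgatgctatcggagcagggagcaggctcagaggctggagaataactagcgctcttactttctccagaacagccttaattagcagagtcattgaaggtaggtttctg
Notch1 intron: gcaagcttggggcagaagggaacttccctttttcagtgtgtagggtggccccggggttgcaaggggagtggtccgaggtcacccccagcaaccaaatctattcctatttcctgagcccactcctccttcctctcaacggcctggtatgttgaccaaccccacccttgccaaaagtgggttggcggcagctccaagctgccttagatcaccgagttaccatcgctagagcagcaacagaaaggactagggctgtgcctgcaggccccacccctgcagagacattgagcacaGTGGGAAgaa
Jag2 downstream: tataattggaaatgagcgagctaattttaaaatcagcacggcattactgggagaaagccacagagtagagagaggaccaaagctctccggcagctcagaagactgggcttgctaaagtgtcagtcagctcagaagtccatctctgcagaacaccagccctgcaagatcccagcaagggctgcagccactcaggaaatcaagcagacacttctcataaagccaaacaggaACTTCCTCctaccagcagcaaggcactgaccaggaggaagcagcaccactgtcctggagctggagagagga
Notch4 intron: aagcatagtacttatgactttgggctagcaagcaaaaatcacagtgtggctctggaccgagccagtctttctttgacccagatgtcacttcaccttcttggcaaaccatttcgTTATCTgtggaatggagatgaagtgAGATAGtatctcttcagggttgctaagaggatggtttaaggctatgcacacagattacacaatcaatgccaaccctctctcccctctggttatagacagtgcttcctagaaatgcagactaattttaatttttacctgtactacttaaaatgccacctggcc
Hey2 downstream: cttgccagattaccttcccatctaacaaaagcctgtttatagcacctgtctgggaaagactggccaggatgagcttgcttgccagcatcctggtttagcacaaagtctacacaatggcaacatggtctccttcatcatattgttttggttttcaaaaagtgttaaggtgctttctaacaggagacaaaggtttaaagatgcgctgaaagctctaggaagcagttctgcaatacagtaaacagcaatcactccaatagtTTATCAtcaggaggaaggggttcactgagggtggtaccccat
Hes1 upstream: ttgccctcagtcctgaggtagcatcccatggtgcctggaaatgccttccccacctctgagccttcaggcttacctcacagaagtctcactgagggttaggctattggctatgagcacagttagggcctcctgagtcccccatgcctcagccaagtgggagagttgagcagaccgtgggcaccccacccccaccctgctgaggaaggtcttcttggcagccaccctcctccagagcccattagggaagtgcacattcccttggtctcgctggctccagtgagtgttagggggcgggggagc

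The RBPJ core GTGGGAA was found, on either strand, in the central 300 bases of 16 of the 125 member regions (12.8%) against 7.05% of all shared regions. A GATA string, AGATAA or AGATAG or TGATAA or TGATAG, was found in 26 member regions (20.8%) against 34.5% of all shared regions. The PU.1 string was added after the values were seen. It was found in 6 member regions (4.80%) against 4.68% of all shared regions, and in 2 of the 10 member regions with at least 90% of their DOX counts from immune-like nuclei, against 17.7% of all 12963 shared regions of that kind. The median log2 ratio outside the immune-like clusters of the 16 member regions with the RBPJ core was -0.13, and that of the 106 tested without it -0.02. Over all regions these medians were -0.06 and -0.06. The 26 member regions with a GATA string had a median of 0.03 and the 96 without one -0.07, against 0.02 and -0.09 over all regions. RefSeq promoters were matched for 8 of the 10 genes (9 promoters), and not for Hes1 and Hey1. Hey2 alone among these 8 held the RBPJ core in its RefSeq promoter, as do 6.38% of 32851 RefSeq promoters. None of the 9 held a GATA string (29.8% of all promoters) or the PU.1 string (3.202%). The core was also found in the central 300 bases of promoter regions of Hes1 (chr16:30064926-30065728), Hey1 (chr3:8666871-8667734) and Notch1 (chr2:26516149-26516967). A match is a string of letters and was not tested as a binding site.

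The question of the design is which regions opened or closed after induction of the shRNA. Over all nuclei, 17 of the 125 member regions (13.6%) were at least 2-fold higher in DOX, against 13% of all shared regions, and 8 (6.40%) were at least 2-fold lower, against 13.4%. Notch2 had 9 of the higher regions and Jag2 had 3. The median log2 ratio of the members was -0.08, and that of all shared regions -0.13. In 10 of the 17 higher regions at least 90% of the DOX counts came from immune-like nuclei, which is 8% of the 125 member regions against 7.41% of all shared regions, and 2 of the 17 stayed at least 2-fold higher outside the immune-like clusters. Of the 8 lower regions 5 stayed at least 2-fold lower. Among nuclei outside those clusters, 5 of 122 member regions with at least 100 counts (4.10%) were higher, against 5.34% of all shared regions, and 11 (9.02%) were lower, against 8.52%. The median of the members was -0.03 there, against -0.06. Both sets of member shares were thus close to the shares of all regions, apart from fewer members lower over all nuclei. In 3 of the 11 lower regions the ratio over all nuclei was above 0.

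**Figure D1:**
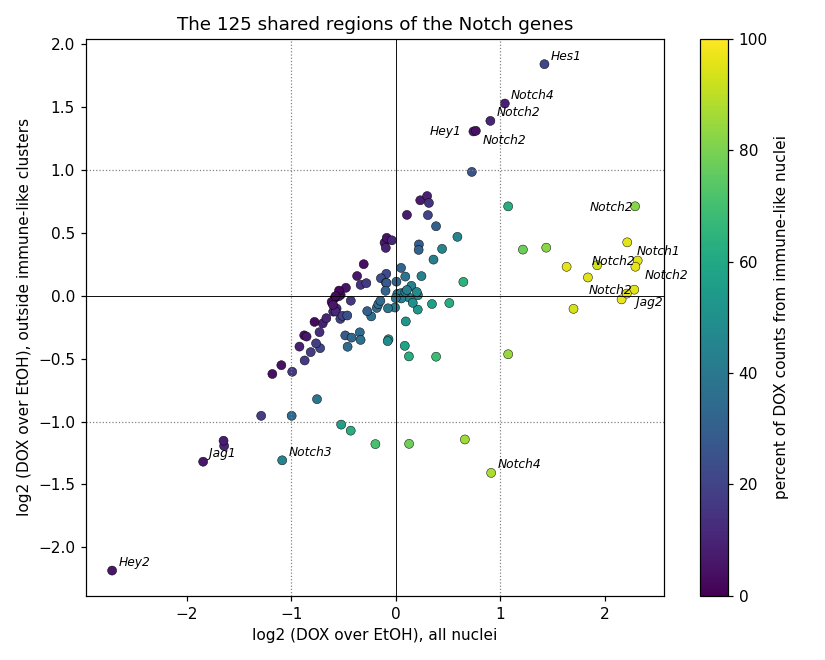
Log2 ratio of DOX over EtOH of the 125 shared Notch regions (points) over all nuclei (x axis) and over the nuclei outside the immune-like clusters (y axis), coloured by the percent of the DOX counts that came from immune-like nuclei, with dotted lines at 2-fold. The 10 regions with at least 90% of their DOX counts from immune-like nuclei lie at the right, above 2-fold over all nuclei and within 2-fold outside, where some of them held under 100 counts. The Hes1 region at the top (1.42 and 1.84) and the Hey2 region at the lower left (-2.71 and -2.19) keep their direction.

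At the promoters, counts were summed over the shared regions within 1 kb of a TSS of each gene. In these sums no member differed by 2-fold in either direction, over all nuclei (3.43% of protein-coding promoters higher, 1.67% lower) or outside the immune-like clusters (0.757% higher, 0.819% lower). Single promoter regions did differ. Over all nuclei 3 of 23 (13.0%) were at least 2-fold higher, at Notch1, Notch4 and Jag2, against 13% of all shared regions. At Dll1 1 (4.35%) was lower, against 13.4%. Outside the immune-like clusters 0 were higher (5.34% of all shared regions) and 1 (4.35%), at Notch4, was lower (8.52%). Over all nuclei the promoters of 3 members lay above 0 beyond their counting interval, against 53.8% of all promoters, and those of 5 lay below 0, against 24.3%. Without immune-like nuclei, those of Jag2, Dll1, Hes1 and Hey1 were higher in DOX (4 of 10, against 25.2%) and that of Notch3 was lower (1 of 10, against 16.6%). Relative to the median of all shared regions (-0.13), the promoters of Hes1 (-0.05), Hey1 (-0.09) and Hey2 (-0.10) lay above it over all nuclei. Relative to the median of all protein-coding promoters (0.09) they lay below it, as did Notch2 (0.05) and Jag1 (0.00), so these signs depend on the scaling. The counting intervals are narrow because the libraries are deep, and they hold no variation between organoid cultures.

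**Figure D2:**
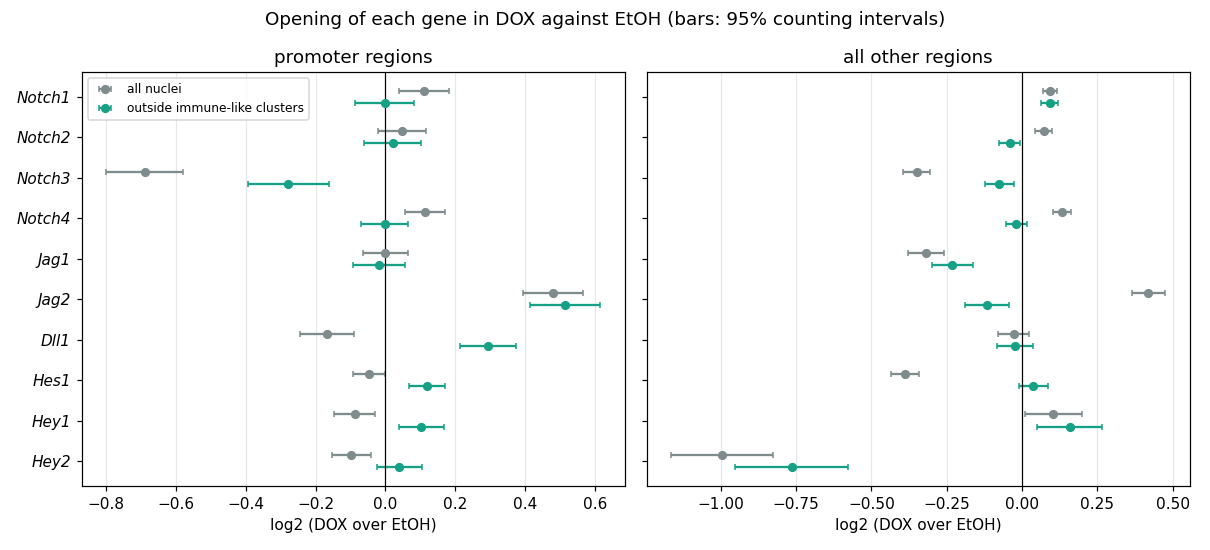
Log2 ratio of DOX over EtOH for each Notch gene, over its promoter regions (left) and all its other regions (right), over all nuclei (grey) and outside the immune-like clusters (green), with 95% counting intervals as bars. The Jag2 promoter lies at 0.48 and 0.51, the Notch3 promoter moves from -0.69 over all nuclei to -0.28 outside the immune-like clusters, and the Dll1 promoter from -0.17 to 0.30.

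Notch1 (chr2:26457903-26516663, minus strand), the receptor long studied in T cell fate, had 27 shared regions. Its promoter regions took 32.3 CPM in DOX, with an interval of 31.3 to 33.4, against 29.95 CPM in EtOH, a log2 ratio of 0.11 (0.04 to 0.18), and outside the immune-like clusters 29.3 CPM in both, a ratio of 0.00 (-0.09 to 0.08). Most of the promoter counts came from a region at an inner TSS 12.8 kb from the gene start (chr2:26503425-26504319), with 28.9 CPM in DOX and 26.1 CPM in EtOH. The region at the gene start (chr2:26516149-26516967) took 1.78 and 0.658 CPM, a ratio of 1.44 (1.03 to 1.87). Outside the immune-like clusters the ratio of this region was 0.38 (-0.34 to 1.10), and 82.3% of its DOX counts came from immune-like nuclei. Both were named after their values were seen. The summed promoter opening of Notch1 ranged from 7.29 to 14.3 CPM per kb across clusters, with the highest values in immune-like nuclei (13.8 in DOX, 14.3 in EtOH). Its region with the highest ratio was an intron region 33.1 kb from the gene start (chr2:26483069-26484005), with 21.1 CPM in DOX and 4.54 CPM in EtOH, a log2 ratio of 2.21 (2.07 to 2.36). It took 51.7 CPM in immune-like nuclei of DOX and 50.8 CPM in those of EtOH, and 0.325 to 2.07 CPM in all other clusters. Outside the immune-like clusters its ratio was 0.43 (0.01 to 0.84). Immune-like nuclei of both libraries were thus alike at this region, and 95.7% of its DOX counts came from them. The lowest ratio at Notch1 was that of a promoter region 1.2 kb from the gene start (chr2:26514986-26515967), with 1.61 CPM in DOX and 3.22 CPM in EtOH, -0.995 over all nuclei and -0.95 (-1.28 to -0.64) outside the immune-like clusters. It was highest in luminal progenitor-like nuclei (5.04 CPM in DOX, 5.38 CPM in EtOH). The region 71.2 kb from the gene start with the most counts of all (97.1 CPM in DOX, 88.99 CPM in EtOH) is the promoter of Sec16a, so the sum over all Notch1 regions is in good part that of another gene.

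Notch2 (chr3:98013527-98150361, plus strand), a receptor known for its part in marginal zone B cells and some dendritic cells, had the most regions of the 10 genes. Its single promoter region was nearly equal in the 2 libraries, at 33.6 CPM in DOX (32.5 in EtOH), a log2 ratio of 0.05 (-0.02 to 0.12). Across clusters it lay between 35.5 and 51.8 CPM per kb, with the most in immune-like nuclei of EtOH. The regions around it were not alike. In 7 of the 32 regions (21.9%, against 7.41% of all shared regions) at least 90% of the DOX counts came from immune-like nuclei. Each of the 7 was over 2-fold higher in DOX over all nuclei, which this choice favours because immune-like nuclei were more frequent in DOX. Outside the immune-like clusters their ratios were within 2-fold. The regions chr3:97994678-97995518, chr3:98005061-98005991 and chr3:98083729-98084641 held under 100 counts there, so they could not be called. The highest ratio was at a region 8.0 kb upstream of the gene start (chr3:98005061-98005991), with 4.34 CPM in DOX and 0.872 CPM in EtOH, 2.32 (1.98 to 2.66) over all nuclei and 0.28 (-0.62 to 1.17) outside. An intron region 53.1 kb into the gene (chr3:98066205-98067114) took 24.0 and 22.0 CPM in immune-like nuclei of DOX and EtOH and at most 1.19 CPM elsewhere. The lowest ratio was at an intron region 67.3 kb into the gene (chr3:98080376-98081232), with 4.13 CPM in DOX and 9.35 CPM in EtOH, -1.18 (-1.35 to -1.02) over all nuclei and -0.62 (-0.79 to -0.45) outside. It was most open in hormone-sensing luminal-like nuclei (14.25 CPM in DOX and 17.02 CPM in EtOH within the Hs3st4-led cluster), against 6.12 CPM in Psg28-led and 0.794 CPM in immune-like nuclei of EtOH. Another intron region, 19.4 kb into the gene (chr3:98032013-98033894, named after its values were seen), was higher in DOX also within immune-like nuclei, at 17.7 CPM against 4.48 CPM, a ratio of 1.99 (1.47 to 2.55).

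Notch3 (chr17:32120820-32166852, minus strand), a receptor of luminal progenitors and of vascular smooth muscle, had the lowest ratio of the receptors. Its 2 promoter regions took 10.5 CPM in DOX (9.93 to 11.2) and 16.99 CPM in EtOH, a log2 ratio of -0.69 (-0.80 to -0.58). They were close to shut in immune-like nuclei, at 2.60 CPM per kb in DOX and 3.78 in EtOH. In luminal progenitor-like nuclei they took 11.3 CPM per kb in DOX (11.98 in EtOH), in hormone-sensing luminal-like nuclei 10.4 (11.5 in EtOH), in Psg28-led nuclei 9.60 and in Cpxm2-led nuclei 6.55 (7.37 in EtOH). The immune-like nuclei were thus the lowest of the clusters and the luminal ones the highest. Outside the immune-like clusters the promoter ratio was -0.28 (-0.39 to -0.16). The region of the gene with the most counts was an intron region 4.4 kb from the gene start (chr17:32162065-32162937, named after its values were seen), which took 47.7 and 39.1 CPM in luminal progenitor-like nuclei of DOX and EtOH and 4.01 and 4.26 CPM in immune-like nuclei. Over all its regions, Notch3 was open in both luminal-like classes. It took 13.3 CPM per kb in hormone-sensing luminal-like nuclei of DOX (14.3 in EtOH) and 12.8 in luminal progenitor-like nuclei of DOX (11.6 in EtOH). The lowest region of the gene was an exon region 44.5 kb from the gene start (chr17:32121825-32122810), with 0.951 CPM in DOX and 2.02 CPM in EtOH, -1.09 over all nuclei and -1.31 (-1.76 to -0.87) outside. Among member regions with at least 100 counts there, it was the only one at least 2-fold apart within the Hs3st4-led hormone-sensing luminal-like cluster, with 1.61 CPM in DOX and 4.62 CPM in EtOH (-1.52, -2.94 to -0.37). There 0 of 75 member regions with at least 100 counts were higher (1.65% of all regions) and 1 was lower (4.04%). Within luminal progenitor-like nuclei 8 of 108 member regions were higher (4.51% of all regions) and 9 were lower (15.5%). Within Cpxm2-led nuclei 1 of 48 was higher (2.44% of all regions) and 0 were lower (3.47%). In DOX these 2 clusters held 55 and 59 nuclei, so their calls rest on few counts. The highest region of Notch3, an exon region 23.5 kb from the gene start (chr17:32142897-32143821), lay at 0.21 (0.10 to 0.33) over all nuclei and at 0.01 outside.

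Notch4 (chr17:34564268-34588503, plus strand), a receptor known mainly from endothelium and as the Int3 insertion site of mouse mammary tumour virus, sits in a gene-dense part of the chromosome. Its region with the most counts is the shared promoter of Agpat1 and Rnf5 (113.4 CPM in DOX, 106.4 CPM in EtOH). The annotated first promoter of Notch4 was nearly shut, at 1.39 CPM in DOX and 1.99 CPM in EtOH, -0.52 over all nuclei and -1.02 (-1.46 to -0.61) outside the immune-like clusters. Most counts of its promoter regions came from an inner TSS 23.2 kb into the gene (chr17:34587066-34587917), with 41.3 of 50.7 CPM in DOX and 35.9 of 46.9 CPM in EtOH. The promoter values of Notch4 in the figures are therefore mainly those of that region. No endothelial-like cluster was named, and the endothelial list took 138 CPM in DOX and 154 CPM in EtOH outside the immune-like clusters. A promoter region of an inner TSS, 14 kb into the gene (chr17:34577814-34578683), had the highest ratio, with 2.69 CPM in DOX and 1.16 CPM in EtOH, 1.22 over all nuclei and 0.37 (-0.14 to 0.87) outside. The lowest was its neighbour 12.5 kb into the gene (chr17:34576313-34577248), with 5.34 and 7.79 CPM, -0.54 over all nuclei and 0.00 outside. Outside the immune-like clusters the highest ratio was that of the intron region shown above (chr17:34579752-34580635, named after its values were seen), 1.53 (1.29 to 1.78). It took 6.79 CPM in Psg28-led nuclei of DOX and 1.11 CPM in luminal progenitor-like nuclei of EtOH. Within the Hs3st4-led cluster it took 8.43 CPM in DOX and 4.25 CPM in EtOH, a ratio of 0.99 (0.35 to 1.60). Within luminal progenitor-like nuclei its ratio was 0.68 (-1.64 to 2.30) and within Cpxm2-led nuclei 0.39 (-1.18 to 1.88), both within the counting interval. A region 2.7 kb upstream of the gene (chr17:34561050-34562136, named after its values were seen) took 22.7 CPM in immune-like nuclei of DOX and 5.99 CPM in those of EtOH, a ratio of 1.92 (1.47 to 2.41) within them, while outside the immune-like clusters it lay at -1.41.

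**Figure D3:**
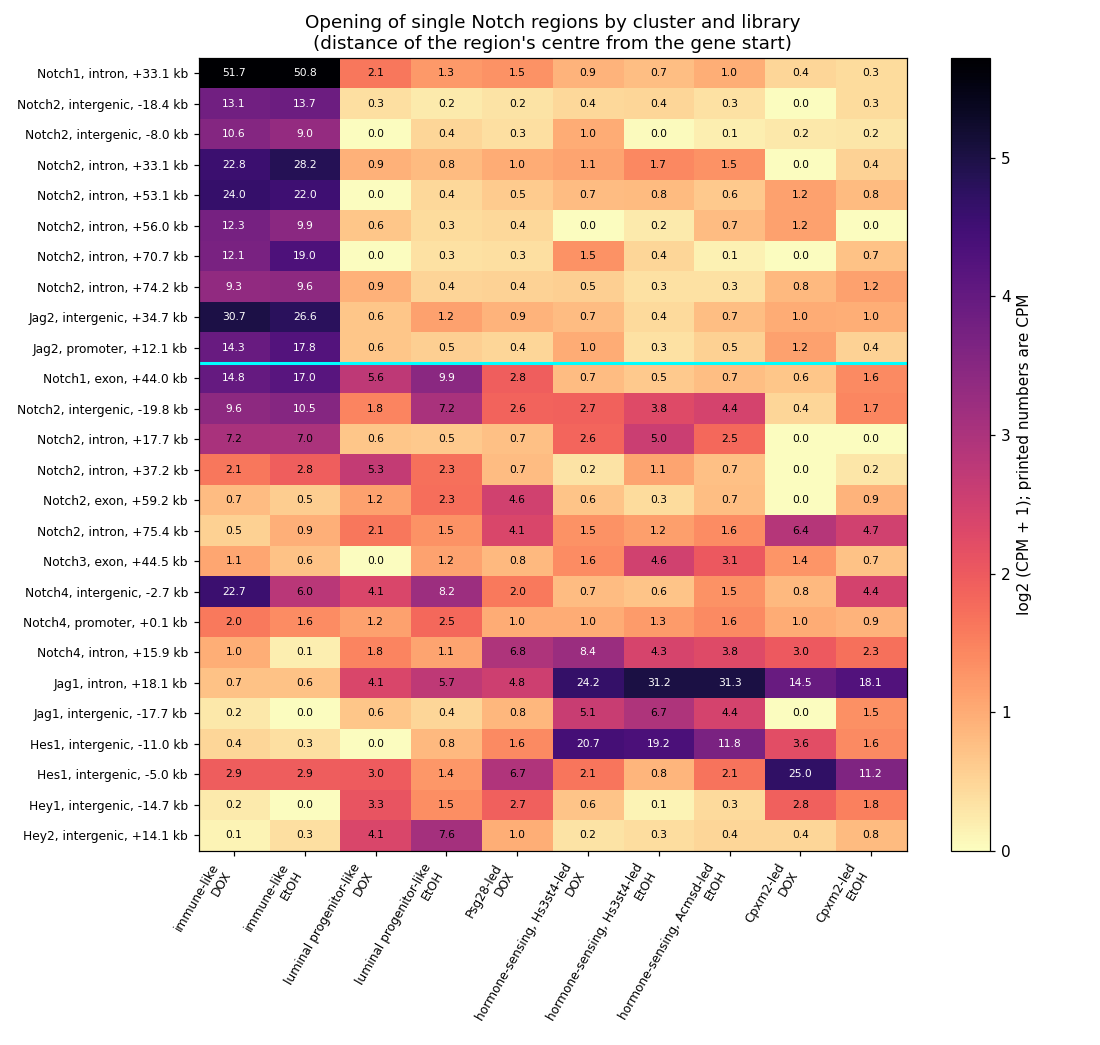
CPM (printed, and coloured on a log2 scale) in each cluster and library of the Notch regions with at least 90% of their DOX counts from immune-like nuclei (above the line) and of the regions at least 2-fold apart outside the immune-like clusters (below the line). Regions of Notch1, Notch2 and Jag2 above the line take 8.95 to 51.7 CPM in immune-like nuclei of either library and at most 2.07 CPM elsewhere. Their choice by immune-like counts in DOX itself favours low values in the other clusters of DOX. Below the line the Jag1 intron region is highest in hormone-sensing luminal-like nuclei and the Hes1 region at -5.0 kb in Cpxm2-led nuclei.

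Within immune-like nuclei (1279 in DOX, 279 in EtOH), 3 of 94 member regions were at least 2-fold higher in DOX, against 6.18% of all regions, and 5 were at least 2-fold lower, against 0.418%. The 3 higher regions were those of Notch2 at 19.4 kb and Notch4 at -2.7 kb, given above, and a Notch2 region 15 kb upstream (3.53 and 1.73 CPM). The 5 lower regions, named after their values were seen, lay at Notch1, Notch3, Jag2, Hey1 and Hey2. All 5 took at most 3.32 CPM and rest on few counts (118 to 178 in immune-like nuclei of both libraries). Their intervals all lay below 0, with upper ends between -0.07 and -0.31. The share of lower members, 5 of 94, was well above the 0.418% of all regions, which had to pass the same minimum of counts. Whether low counts account for this excess was not tested. In immune-like nuclei the pan-luminal list took 122 CPM in DOX and 118 CPM in EtOH, and its part in these differences was not tested.

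Jag1 (chr2:137081456-137116644, minus strand), a ligand whose loss causes bile duct and heart defects, had an equal promoter in the 2 libraries, with 39.2 CPM in each and a log2 ratio of 0.00 (-0.06 to 0.06). Its promoter opening lay between 47.2 CPM per kb in Psg28-led nuclei and 61.6 in Cpxm2-led nuclei of EtOH. Away from the promoter it differed. The intron region 18.1 kb from the gene start (chr2:137098053-137098968) took 4.17 CPM in DOX and 14.9 CPM in EtOH, -1.84 (-1.998 to -1.69) over all nuclei and -1.32 (-1.48 to -1.16) outside the immune-like clusters. It was highest in hormone-sensing luminal-like nuclei, with 24.2 CPM in DOX and 31.2 CPM in EtOH within the Hs3st4-led cluster (-0.37, -0.70 to -0.05) and 31.3 CPM in the Acmsd-led cluster of EtOH. Cpxm2-led nuclei took 14.5 CPM in DOX and 18.1 CPM in EtOH, and Psg28-led and luminal progenitor-like nuclei 4.15 to 5.71 CPM. The difference within 1 cluster was thus smaller than that over all nuclei, and DOX held 100 hormone-sensing luminal-like nuclei against 994 in EtOH. The highest region, an intron region 2.1 kb from the gene start (chr2:137114152-137114929), took 14.4 CPM in DOX and 9.18 CPM in EtOH, 0.65 over all nuclei and 0.11 (-0.05 to 0.27) outside. A region 48.8 kb downstream of the gene start within another gene (chr2:137067400-137068348, named after its values were seen) was open in Cpxm2-led nuclei, at 16.9 CPM in DOX and 25.4 CPM in EtOH, and took at most 2.36 CPM elsewhere.

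Jag2 (chr12:112907819-112929776, minus strand), a ligand expressed by basal epithelial cells of many tissues, was the member whose promoter was higher in DOX by the most. Its 4 promoter regions took 25.3 CPM in DOX (24.3 to 26.3) and 18.1 CPM in EtOH, a log2 ratio of 0.48 (0.39 to 0.57), and 24.7 against 17.3 CPM outside the immune-like clusters, 0.51 (0.41 to 0.62). By cluster the promoter opening was 20.3 CPM per kb in Cpxm2-led nuclei of DOX and 18.2 in those of EtOH. It was 7.24 and 8.22 in immune-like nuclei, 6.48 in Psg28-led nuclei, and between 3.68 and 4.16 in both luminal-like classes of both libraries. Cpxm2-led nuclei were thus clearly apart from all others, and Psg28-led nuclei above the luminal ones. Within the clusters the libraries were close, and the intervals of the 2 libraries overlapped in each of the 4 classes present in both. A large part of the immune-like value came from another place, an inner promoter region 12.1 kb from the gene start (chr12:112917221-112918139). It took 14.3 and 17.8 CPM in immune-like nuclei, out of 26.3 CPM in DOX and 29.8 CPM in EtOH over the 4 promoter regions, and at most 1.19 CPM elsewhere. The region with the highest ratio, 34.7 kb downstream of the gene start (chr12:112894563-112895569), showed the same pattern, with 30.7 and 26.6 CPM in immune-like nuclei of DOX and EtOH and at most 1.20 CPM elsewhere. It took 12.6 CPM in DOX and 2.71 CPM in EtOH, 2.21 over all nuclei and 0.02 (-0.48 to 0.51) outside. The lowest region lies in Nudt14, 8.3 kb upstream (chr12:112937605-112938473), with 1.13 and 1.99 CPM, -0.81 over all nuclei, and was open mainly in Cpxm2-led nuclei (10.5 and 12.7 CPM).

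Dll1 (chr17:15367354-15376872, minus strand), a Delta ligand known from basal mammary cells, changed direction with the nuclei counted. Its 3 promoter regions took 24.97 CPM in DOX and 28.0 CPM in EtOH, a log2 ratio of -0.17 (-0.24 to -0.09), but outside the immune-like clusters 35.95 and 29.3 CPM, a ratio of 0.30 (0.22 to 0.38). By cluster the promoter took 15.7 CPM per kb in Cpxm2-led nuclei of DOX (13.5 in EtOH), 15.7 in luminal progenitor-like nuclei of DOX (13.97 in EtOH) and 13.5 in Psg28-led nuclei. It took 5.59 in hormone-sensing luminal-like nuclei of DOX (5.40 in EtOH) and 2.83 in immune-like nuclei of DOX (3.98 in EtOH). There were thus 3 levels, and the first 3 clusters did not differ beyond the counting intervals of their DOX values. DOX held few hormone-sensing luminal-like nuclei, so the nuclei outside the immune-like clusters differ in makeup as well. The highest ratio was at a region 3.9 kb upstream (chr17:15380305-15381231), with 8.31 and 7.13 CPM, 0.22 over all nuclei and 0.37 (0.20 to 0.53) outside. The lowest was at an inner promoter region 7.8 kb from the gene start (chr17:15368580-15369602), with 0.908 and 2.22 CPM, -1.29 over all nuclei and -0.95 (-1.34 to -0.58) outside.

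**Figure D4:**
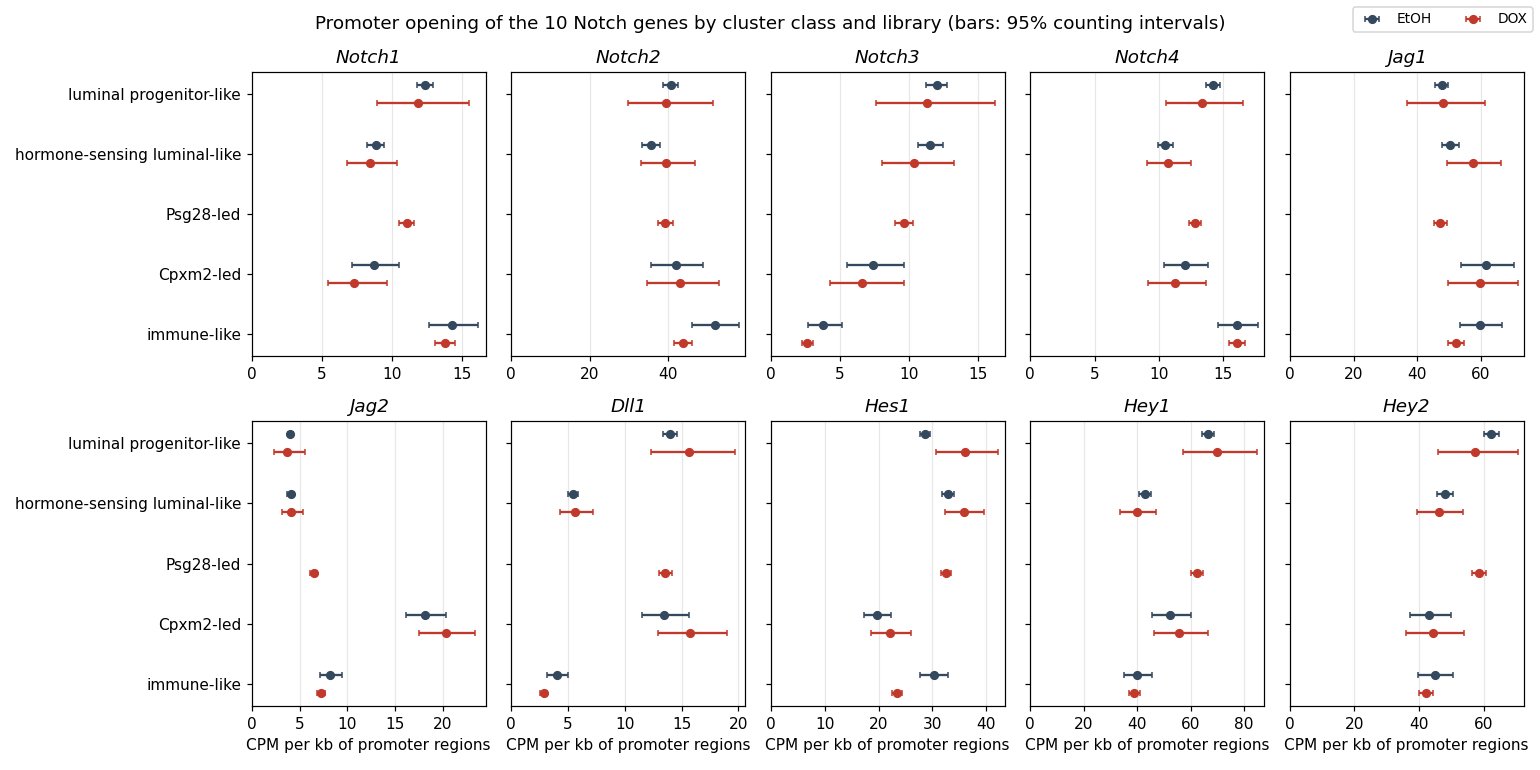
Promoter opening of the 10 Notch genes in CPM per kb of promoter regions (x axes, each from 0) in the cluster classes with at least 50 nuclei in a library, with DOX in red, EtOH in dark blue and 95% counting intervals as bars. Jag2 is highest in Cpxm2-led nuclei (20.3 and 18.2), Dll1 is lowest in immune-like and hormone-sensing luminal-like nuclei, and Notch3 is lowest in immune-like nuclei.

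Hes1 (chr16:30064384-30067796, plus strand), a repressor that holds back differentiation in many progenitors, had a promoter at 74.2 CPM in DOX (72.5 to 75.8) and 76.7 CPM in EtOH, a log2 ratio of -0.05 (-0.09 to 0.00), and at 83.2 against 76.6 CPM outside the immune-like clusters, 0.12 (0.07 to 0.17). Per kb the promoter took 36.0 CPM in luminal progenitor-like nuclei of DOX and 28.6 in those of EtOH, 35.8 and 32.9 in hormone-sensing luminal-like nuclei, 32.5 in Psg28-led nuclei, and 22.1 and 19.7 in Cpxm2-led nuclei. Immune-like nuclei took 23.4 in DOX and 30.2 in EtOH, a ratio of -0.37 (-0.50 to -0.23), the opposite direction to that outside them. The largest difference of any member outside the immune-like clusters, in the higher direction, was at the region 5.0 kb upstream of the gene start (chr16:30058939-30059794). It had 1144 counts (5.38 CPM) in DOX and 403 (2.01 CPM) in EtOH, 1.42 (1.19 to 1.66) over all nuclei and 1.84 (1.59 to 2.10) outside. It was most open in Cpxm2-led nuclei, with 25.03 CPM in DOX and 11.2 CPM in EtOH, a ratio of 1.16 (0.61 to 1.72) within that cluster. In luminal progenitor-like nuclei it took 2.96 and 1.36 CPM (1.12, -0.55 to 2.41) and in the Hs3st4-led cluster 2.11 and 0.845 CPM (1.32, -0.10 to 2.65). In Psg28-led nuclei of DOX it took 6.69 CPM, and in immune-like nuclei 2.90 and 2.89 CPM (0.01, -0.68 to 0.77). DOX was thus higher within each of these 3 clusters outside the immune-like ones, beyond the counting interval in 1 of them, and equal to EtOH in immune-like nuclei. The lowest Hes1 region, 11 kb upstream (chr16:30052912-30053815), took 1.89 CPM in DOX and 5.92 CPM in EtOH, -1.65 over all nuclei and -1.15 (-1.40 to -0.91) outside. It was open in hormone-sensing luminal-like nuclei, with 20.7 and 19.2 CPM in the Hs3st4-led cluster (0.11, -0.26 to 0.46) and 11.8 CPM in the Acmsd-led cluster of EtOH, and took at most 3.58 CPM elsewhere.

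Hey1 (chr3:8663359-8667256, minus strand) and Hey2 (chr10:30832359-30842801, minus strand), repressors that share targets in heart and vessel development, each had 1 promoter region. That of Hey1 took 45.3 CPM in DOX and 48.1 CPM in EtOH, -0.09 (-0.15 to -0.03) over all nuclei and 0.10 (0.04 to 0.17) outside the immune-like clusters. It was highest in luminal progenitor-like nuclei, at 69.96 CPM per kb in DOX and 66.5 in EtOH, and lowest in immune-like nuclei (38.8 and 40.0) and hormone-sensing luminal-like nuclei (40.0 and 42.9). The highest Hey1 region, 14.7 kb upstream (chr3:8681424-8682403), took 1.66 and 0.977 CPM, 0.77 over all nuclei and 1.31 (0.95 to 1.69) outside, and the lowest, 18.1 kb upstream (chr3:8684917-8685858), took 2.38 and 4.03 CPM, -0.76 and -0.38. The Hey2 promoter took 46.8 CPM in DOX and 50.1 CPM in EtOH, -0.10 (-0.15 to -0.04) over all nuclei and 0.04 (-0.02 to 0.10) outside. The region 14.1 kb downstream of the Hey2 start (chr10:30828233-30829103) had the lowest ratio of all member regions, with 135 counts (0.635 CPM) in DOX and 836 (4.17 CPM) in EtOH, -2.71 (-3.11 to -2.34) over all nuclei and -2.19 (-2.59 to -1.80) outside. It took 7.58 CPM in luminal progenitor-like nuclei of EtOH and 4.15 CPM in those of DOX (-0.87, -2.19 to 0.19), 0.972 CPM in Psg28-led nuclei, and less than that in the other clusters. Of the clusters counted here only the luminal progenitor-like one took more than 1 CPM, and with its 55 nuclei in DOX the difference within it was not beyond the counting interval. The highest Hey2 region, 17.5 kb downstream of the start (chr10:30824808-30825781), lay at 0.01.

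Outside the immune-like clusters, each nucleus was given a luminal and a basal score, the counts at 10 pan-luminal and 12 basal marker genes, and the nuclei were cut into 3 equal bands of luminal over basal opening. A band is a range of a score, not a cell type. DOX had 501 nuclei in the luminal-high and 667 in the basal-high band, and EtOH had 1036 and 872. Hes1 and Notch3 were more open in the luminal-high band of both libraries. For Hes1 the log2 ratio of the bands was 0.17 (0.10 to 0.24) in DOX, from 183.7 against 163.1 CPM, and 0.30 (0.24 to 0.36) in EtOH, from 179.2 against 145.9 CPM. For Notch3 it was 0.20 (0.11 to 0.30) in DOX and 0.33 (0.25 to 0.40) in EtOH. Jag2 was more open in the basal-high band of both, at -0.26 (-0.38 to -0.14) and -0.20 (-0.29 to -0.10). In Notch2 the ratio was -0.07 in both libraries, and in DOX it was within the counting interval under each of the 4 other ways of making the bands. The other members went beyond the counting interval in 1 library: Dll1 towards basal in EtOH (-0.23, -0.31 to -0.15), Jag1 towards basal in DOX (-0.16), and Notch1, Notch4, Hey1 and Hey2 towards luminal in DOX (0.08 to 0.18). Several of these calls did not hold. Without regions in or at the promoter of another gene, Notch4 lay at 0.03 (-0.10 to 0.15) and Notch1 at 0.06 (-0.01 to 0.12), while Jag2 lay at -0.52 in DOX and -0.41 in EtOH. With luminal progenitor and hormone-sensing lists in place of the pan-luminal one, Hey1 turned to -0.04, and Notch1 (0.00), Hey2 (0.08) and Jag2 (-0.11, -0.23 to 0.00) were within the interval in DOX. With the scores of nuclei thinned to 1 depth, and shallower nuclei left out, Notch4 (0.04), Hey1 (0.07) and Hey2 (0.05) were within it. With 2 equal bands Jag1 (-0.08) and Hey1 (0.05) were within it. Hes1 and Notch3 in both libraries and Dll1 in EtOH stayed beyond it under these 4 alternatives and with cuts set in each library alone. Whether the 2 libraries differ in these contrasts was not tested.

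**Figure D5:**
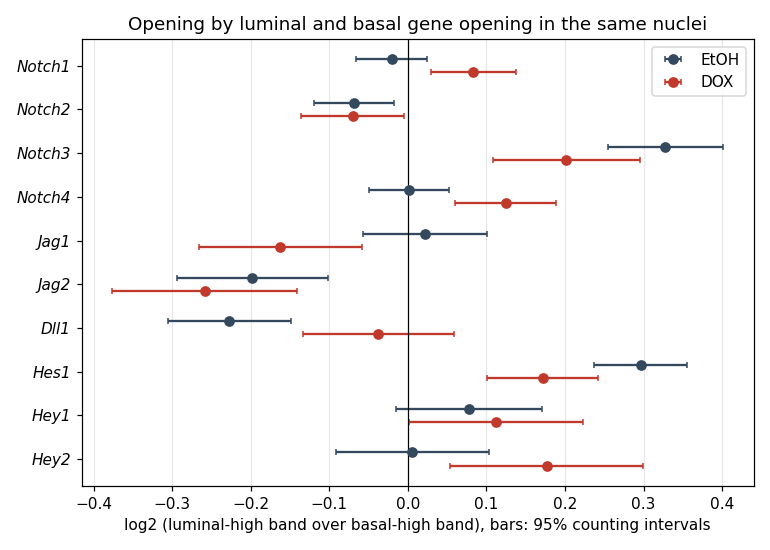
Log2 ratio of the luminal-high over the basal-high band for each Notch gene, summed over its shared regions, in DOX (red) and EtOH (dark blue), with 95% counting intervals as bars. Notch3 (0.20 and 0.33) and Hes1 (0.17 and 0.30) lie to the right of 0 in both libraries and Jag2 (-0.26 and -0.20) to the left.

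Single member regions differed more between the bands than the gene sums. In DOX, 0 of 101 member regions were at least 2-fold higher in the luminal-high band (1.3% of all regions) and 2 were at least 2-fold lower (3.58%). In EtOH, 3 of 114 were higher (5.97%) and 5 were lower (6.01%). The lowest in both libraries was the Jag1 region 48.8 kb downstream of the gene start, at -2.43 (-3.59 to -1.45) in DOX and -2.58 (-3.20 to -2.01) in EtOH. The 2 upstream regions of Hes1 went opposite ways. The region at 5.0 kb was more open in basal-high nuclei, at -0.74 (-1.12 to -0.36) in DOX and -1.34 (-1.90 to -0.81) in EtOH, and that at 11 kb in luminal-high nuclei, at 0.95 (0.41 to 1.498) and 1.17 (0.83 to 1.51).

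A list of 45 other genes of the pathway was compared at their promoters, from glycosyltransferases, proteases and ubiquitin ligases to the RBPJ complex and further targets. A promoter with at least 100 counts was measured for 44 of them, and Hes7 had no shared promoter region. With the promoter regions of each gene summed, none differed by 2-fold in either direction, over all nuclei or outside the immune-like clusters. In all, 27 (61.4%, against 53.8% of all promoters) were higher in DOX beyond the counting interval and 4 (9.09%, against 24.3%) were lower, with a median log2 ratio of 0.09, against 0.09 over all promoters. Outside the immune-like clusters 14 were higher (31.8%, against 25.2%) and 7 lower (15.9%, against 16.6%), with a median of 0.01, against 0.02. The medians of the list were thus close to those of all promoters, and over all nuclei fewer of its promoters were lower. Heyl, a target of the same family as Hey1, had the highest ratio, with 21.6 CPM in DOX and 15.2 CPM in EtOH outside the immune-like clusters (0.51, 0.40 to 0.61) and 0.04 over all nuclei. Hes5 (0.25), Ccnd1 (0.22), Dll3 (0.19) and Maml3 (0.18) followed. Among the lowest were Neurl1a, a ubiquitin ligase of ligand endocytosis (-0.79, -1.11 to -0.48), Dtx3 (-0.38), Dlk1 (-0.24, interval -0.72 to 0.23) and Poglut1 (-0.13). Neurl1a changed direction with the nuclei counted, at 0.85 over all nuclei. Rbpj itself took 93.3 CPM in DOX and 93.5 CPM in EtOH outside the immune-like clusters (0.00, -0.05 to 0.05).

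For each member, the 2 protein-coding genes with the most similar opening over the 9 groups of cluster class and library with at least 50 nuclei were found among 15969 genes. Opening here is the sum over the gene body and 2 kb around its TSS, compared as Pearson's r of log2 CPM. They were Arhgef38 (0.996) and Neu2 (0.996) for Notch3, Usp13 (0.993) and Gm4894 (0.991) for Dll1, Arhgef1 (0.986) and Scgb2b27 (0.984) for Hey2, Tmem126b (0.984) and Syp (0.979) for Notch2, Ccdc158 (0.983) and Csnk1g1 (0.977) for Notch1, and Ildr2 (0.975) and Ucp3 (0.973) for Jag2. For Hey1 they were AU040320 (0.975) and Gpx4 (0.974), for Notch4 Tuba1c (0.971) and Galc (0.967), for Jag1 Fbn1 (0.957) and Immp2l (0.948), and for Hes1 Pabpc4 (0.954) and Epb41 (0.951). The groups share 2 libraries and differ in depth, and the highest of so many genes is high by selection, so these values are a description. Opening of chromatin was measured throughout, and not the RNA or protein of these genes.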

How the data were processed

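Single-cell ATAC-seq was measured in 2 libraries (1 DOX, 1 EtOH). The deposited values are counts of transposase cut sites per peak and nucleus, made by the authors with cellranger-atac 2.0.0 per the file headers (build mm10 per the submitters' processing notes), with peaks called in each library alone. Most values are even because a fragment gives 2 cuts, so intervals were computed on counts divided by 2. Peaks were merged across libraries, and regions with a peak in both were scaled to CPM. Nuclei were clustered on TF-IDF components 2 to 30, without the member regions (15 neighbours, Leiden resolution 0.5, seed 1). Regions with under 100 counts over both libraries were left out. No doublet caller was run. The code was tested on simulated data.

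Named regions are the highest and the lowest log2 ratio of each gene over all nuclei. Regions at least 2-fold apart outside the immune-like clusters (16) were to be named only if 12 or fewer, so further ones were chosen after their values were seen. Of the other pathway genes, the 5 highest and 5 lowest promoter ratios outside those clusters are named, except 1 that is not reported here, and for each member the 2 most similar genes. Members and lists were chosen with earlier results of these data known. Alternatives changed the scaling, nuclei, window, filter, assignment, clustering and bands. Python 3.11.15, numpy 2.4.6, scipy 1.17.1, pandas 2.3.3, scikit-learn 1.9.0, igraph 0.11.9, leidenalg 0.10.2, pysam 0.24.0 and matplotlib 3.10.9 were used.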

Additional observations from a re-analysis of the deposited data

How the results depend on the processing

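No paired analysis was possible because DOX and EtOH were 1 library each, and no replicate could be left out. With the window shortened to the gene body and 2 kb around a TSS, 4 of 76 member regions (5.26%, against 13.4% of all regions) were at least 2-fold lower in DOX over all nuclei, and 6 of 75 (8%, against 8.52%) were lower and 3 (4.00%, against 5.34%) higher outside the immune-like clusters. Counting nuclei with a count in place of counts left 6 of 116 (5.17%, against 6.13% of all regions) lower outside those clusters. In DOX, 6 genes were more open in the luminal-high band and 3 in the basal-high band. Basal-high genes numbered 1 with 2 equal bands, luminal progenitor and hormone-sensing lists gave 3 luminal-high and 1 basal-high, and thinning each nucleus to 20000 counts gave 3 luminal-high. The thinning applied to the band scores only, and it left out 261 DOX and 320 EtOH nuclei with under 20000 counts. The causes were not tested. Summed over all regions of a gene, the direction turned for Dll1 over all nuclei with the median of all shared regions set to 0 (0.0563, against -0.0705), for Notch2 outside the immune-like clusters with that scaling (0.0258) or with totals over all peaks (0.00708), against -0.0323, and for Hey1 between the bands of DOX with the other luminal lists (-0.0411, against 0.112). No fibroblast-like, endothelial-like or pericyte-like cluster was named, so leaving these out changed nothing. Leaving out the 23 shared barcodes in each library, or the shallow Il1rapl1-led cluster, kept each count of regions within 1.5 times. These settings, and the bands without regions of other genes, were added after seeing the data. Small gene ratios near 0 are within what the choice of scaling moves.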
